A study of Mus musculus with 35 samples.

Results

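Calcium that enters a podocyte is pumped out again across the plasma membrane by the calcium ATPases of the Atp2b family, and what stays in the cytosol binds calmodulin and can switch on the phosphatase calcineurin. Calcineurin removes phosphate from the NFAT transcription factors, which then move to the nucleus, and it also acts on the actin-binding protein synaptopodin. The RCAN proteins bind calcineurin and modulate its activity, and *Rcan1* is itself a well-known target of NFAT. Calcineurin in podocytes is best known as the target of cyclosporine and tacrolimus, drugs used against proteinuria.

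The 8 genes examined here are the pumps *Atp2b1* and *Atp2b4*, the regulators *Rcan1* and *Rcan2*, the catalytic subunits of calcineurin *Ppp3ca* and *Ppp3cb*, and the NFAT factors *Nfatc1* and *Nfatc3*. They are 8 of 33292 genes in the table. *Atp2b4* and *Rcan2* were chosen by their TPM values, which were higher in the knock-in mice than in controls, and the other 6 were taken as their context. For *Atp2b4* and *Rcan2*, differences between knock-in and control mice are therefore described without a test, and counts in those comparisons run over the other 6 genes.

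Podocytes were taken from C57BL/6 mice of 7 to 10 weeks of age that carried a floxed allele of *Lmx1b*, the gene of a LIM homeodomain transcription factor, together with a wild-type allele (*Lmx1b* +/lox, labelled WT and called control here) or a knock-in allele with an altered LIM domain (*Lmx1b* H77L/lox and *Lmx1b* C118F/lox, called H77L and C118F). All groups, the controls included, carried rtTA and tetO::Cre transgenes, which express Cre recombinase in podocytes under doxycycline, and the mTmG reporter, which turns cells green once Cre has acted. Every mouse drank doxycycline at 2 mg/ml and was injected every other day with the solvent DMSO or with the proteasome inhibitor bortezomib (Btz) at 0.3 μg per g body weight, and green podocytes were sorted by FACS on day 7. Each combination of genotype and treatment had 6 mice, except for the bortezomib-treated C118F mice with 5, giving 35 libraries of 1 mouse each. In this model the floxed allele is lost in podocytes during the same 7 days in which the drug is given, so that control podocytes keep 1 wild-type allele and knock-in podocytes keep the mutant one.

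Values are TPM, a measure of transcript abundance that is corrected for gene length and sums to the same total in every mouse. Estimated depth ranged from 5269307 to 24149853 reads per mouse (median, 19168175), and the lowest belonged to a bortezomib-treated C118F mouse, the next lowest having 14038827. *Lmx1b* itself lay between 37.4 and 185 TPM in all mice, a value that sums both alleles and cannot show the substitutions. Under DMSO it had 44.8 to 89.7 TPM in controls (median, 71.5) and 89.9 to 139 TPM in H77L mice (median, 120). The DMSO-treated C118F mice had 37.4 to 185 TPM (median, 104). Under bortezomib the medians were 88.1 TPM in controls, 93.8 TPM in H77L and 128 TPM in C118F mice. All 12 podocyte markers checked, among them *Nphs1* and *Synpo*, were above 1 TPM in every mouse, but their sum was lower in the knock-in mice, at 6019 to 15561 TPM against 27440 to 43880 TPM in the controls. Of the 6 mesangial markers, 1 was above 1 TPM in every mouse of each group, and their sum was 11.6 to 46.9 TPM in controls and 64.8 to 2269 TPM in knock-in mice. *Pdgfrb*, which is in this list, had 144 to 544 TPM in DMSO-treated H77L mice and 9.28 to 22.1 TPM in their controls. The highest *Pdgfrb* and the highest sum were 544 and 557 TPM in these H77L mice. They were 247 and 251 TPM in bortezomib-treated H77L mice and 258 and 259 TPM in bortezomib-treated C118F mice. In controls they were 22.1 and 46.9 TPM under DMSO and 19.9 and 34.1 TPM under bortezomib. No rise of the other mesangial markers can be read from the sum. The 5 smooth muscle markers summed to 26.0 to 119 TPM in controls and 99.8 to 489 TPM in knock-in mice. Of these, 1 was above 1 TPM in every mouse of each control group, and 2 in every mouse of each knock-in group. The highest *Acta2*, also in this list, was 210 TPM in H77L and 422 TPM in C118F mice under DMSO, against 80.1 TPM in controls. Under bortezomib it was 8.52 and 16.2 TPM, against 15.2 TPM in controls. No rise of each single marker can be read from the sum. The highest sums of the mesangial, smooth muscle and endothelial lists were all in 1 DMSO-treated C118F mouse. The renin gene *Ren1*, a mesangial marker here, had 2166 TPM in this mouse and made up most of its mesangial sum. The tubule and leukocyte lists had their highest sums, 1246 and 328 TPM, in 2 different DMSO-treated controls, and ranged from 0.771 to 1246 TPM and from 2.38 to 328 TPM over all mice, while the endothelial list ranged from 13.2 to 212 TPM. The T cell marker *Cd3e* was at 0 in every group but the DMSO-treated controls. The part of these cell types in the results was not tested, and in sorted bulk samples more cells of a type and more RNA per cell cannot be told apart. Results for *Nfatc1*, *Rcan2* and *Atp2b4* are given with and without the C118F mouse with high *Ren1* and the C118F mouse with few reads.

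*Atp2b4* (ENSMUSG00000026463) lies on the minus strand of chromosome 1 from 133627195 to 133728923 in GRCm39, *Rcan2* (ENSMUSG00000039601) on the plus strand of chromosome 17 from 44112216 to 44350407, and *Rcan1* (ENSMUSG00000022951) on the minus strand of chromosome 16 from 92188840 to 92267755. The 250 bases before the start of the canonical transcript are printed for these 3 genes, because the first 2 were chosen for their rise and *Rcan1* is the paralog of *Rcan2* that differed from it. Capitals mark TAATTA, a core bound by many LIM homeodomain proteins, and GGAAA, the core bound by NFAT, on either strand (TTTCC on the strand shown). The sequences were read from GRCm39 with GENCODE vM39 starts and are given 5′ to 3′ on the strand of the gene.
Atp2b4, chr1:133728924-133729173, minus strand: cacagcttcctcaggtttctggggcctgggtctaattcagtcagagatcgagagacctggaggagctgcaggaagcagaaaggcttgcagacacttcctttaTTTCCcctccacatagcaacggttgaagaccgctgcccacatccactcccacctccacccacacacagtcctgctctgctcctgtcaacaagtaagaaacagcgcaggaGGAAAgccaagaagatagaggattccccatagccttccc
Rcan2, chr17:44263756-44264005, plus strand: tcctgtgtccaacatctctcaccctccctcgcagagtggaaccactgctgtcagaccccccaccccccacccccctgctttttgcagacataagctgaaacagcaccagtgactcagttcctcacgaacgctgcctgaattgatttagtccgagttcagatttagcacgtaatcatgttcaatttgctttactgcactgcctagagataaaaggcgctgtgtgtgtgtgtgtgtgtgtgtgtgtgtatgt
Rcan1, chr16:92196966-92197215, minus strand: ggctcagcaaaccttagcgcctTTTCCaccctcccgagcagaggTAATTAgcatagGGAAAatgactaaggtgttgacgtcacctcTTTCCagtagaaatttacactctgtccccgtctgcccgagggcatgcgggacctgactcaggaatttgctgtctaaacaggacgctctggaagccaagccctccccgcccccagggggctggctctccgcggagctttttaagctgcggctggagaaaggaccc

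The *Atp2b4* window held 2 GGAAA cores and no TAATTA, that of *Rcan2* held neither, and that of *Rcan1* held 3 GGAAA cores and 1 TAATTA. Among the windows of 11287 expressed genes, 56.2% held at least 1 GGAAA and 2.79% at least 1 TAATTA. *Nfatc3* was the only other gene of the 8 with a TAATTA in its window. The G+C content was 54.0% for *Atp2b4*, 50.4% for *Rcan2* and 56.8% for *Rcan1*, against a median of 57.2% over all windows. All 3 genes have further annotated starts, of which only those of transcripts with a consensus coding sequence (CCDS) entry were examined. The second such start of *Atp2b4*, at 133681485, had no match to either core before it. The *Rcan1* window shown belongs to the start at 92196965, and the other examined start, upstream of it at 92263162, had no match either. For *Rcan2*, the most upstream of 4 examined starts, at 44112216, had 2 GGAAA cores and the others none. TPM values sum all transcripts of a gene, so that the use of these starts is not known from the table. A match is only a run of letters, and a window without one says nothing of the factor.

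*Atp2b4*, the plasma membrane pump known as PMCA4, was barely present in control podocytes and present in every knock-in mouse. It ranged from 0.105 to 1.82 TPM in DMSO-treated controls (median, 0.514) and from 0.0895 to 0.423 TPM in bortezomib-treated controls (median, 0.35). In DMSO-treated mice it ranged from 6.60 to 11.6 TPM in the H77L line (median, 8.60) and from 5.64 to 9.86 TPM in the C118F line (median, 6.93). After bortezomib it ranged from 3.96 to 9.45 TPM in H77L mice (median, 6.05), and the 5 C118F mice had 8.62, 9.99, 15.0, 17.7 and 18.7 TPM. All knock-in mice were thus above all controls under either treatment. Over all genes tested, the knock-in mice were higher without overlap for 11.0% in H77L and 6.48% in C118F mice under DMSO, and for 6.8% and 9.01% under bortezomib. The ratio of the mean TPM to that of controls was 12.5 in H77L and 10.8 in C118F mice under DMSO, and 22.0 and 47.7 under bortezomib. In log2(TPM + 1), where the added 1 shrinks the fold of a gene this low, the differences were 2.58 ± 0.23 (standard error) and 2.39 ± 0.23 under DMSO and 2.49 ± 0.19 and 3.49 ± 0.22 under bortezomib. Controls rested on few reads, between 7 and 91 per mouse, so that the ratios of mean TPM are uncertain. The log2 differences depend on the pseudocount, and with 0.1 in place of 1 they were 3.60 to 5.20. The DMSO-treated control with the most *Atp2b4*, 1.82 TPM, was also the one with the highest sum of tubule markers, and the next, with 0.941 TPM, was the one with the highest sum of leukocyte markers. Without the first of these mice, the differences under DMSO were 2.74 in H77L and 2.55 in C118F mice.

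*Rcan2*, a calcineurin regulator well expressed in control podocytes, was several times higher in both knock-in lines. Controls had 37.3 to 59.1 TPM under DMSO (median, 45.2) and 30.9 to 60.0 TPM under bortezomib (median, 41.3). H77L mice had 235 to 388 TPM under DMSO (median, 239) and 138 to 240 TPM under bortezomib (median, 183). C118F mice had 182 to 312 TPM under DMSO (median, 236), and 85.7, 92.7, 209, 266 and 284 TPM under bortezomib. No knock-in mouse overlapped with the controls of the same treatment, and the nearest to them were 2 of the 5 bortezomib-treated C118F mice. The ratio of mean TPM to controls was 6.03 and 5.16 under DMSO and 4.43 and 4.40 under bortezomib for H77L and C118F, respectively. In log2(TPM + 1) these differences were 2.55 ± 0.14, 2.33 ± 0.14, 2.13 ± 0.18 and 1.98 ± 0.31. Without the C118F mouse with high *Ren1*, the differences of C118F mice under DMSO were 2.41 for *Rcan2* and 2.45 for *Atp2b4*. Without the C118F mouse with few reads, those under bortezomib were 1.81 and 3.37.

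**Figure D1:**
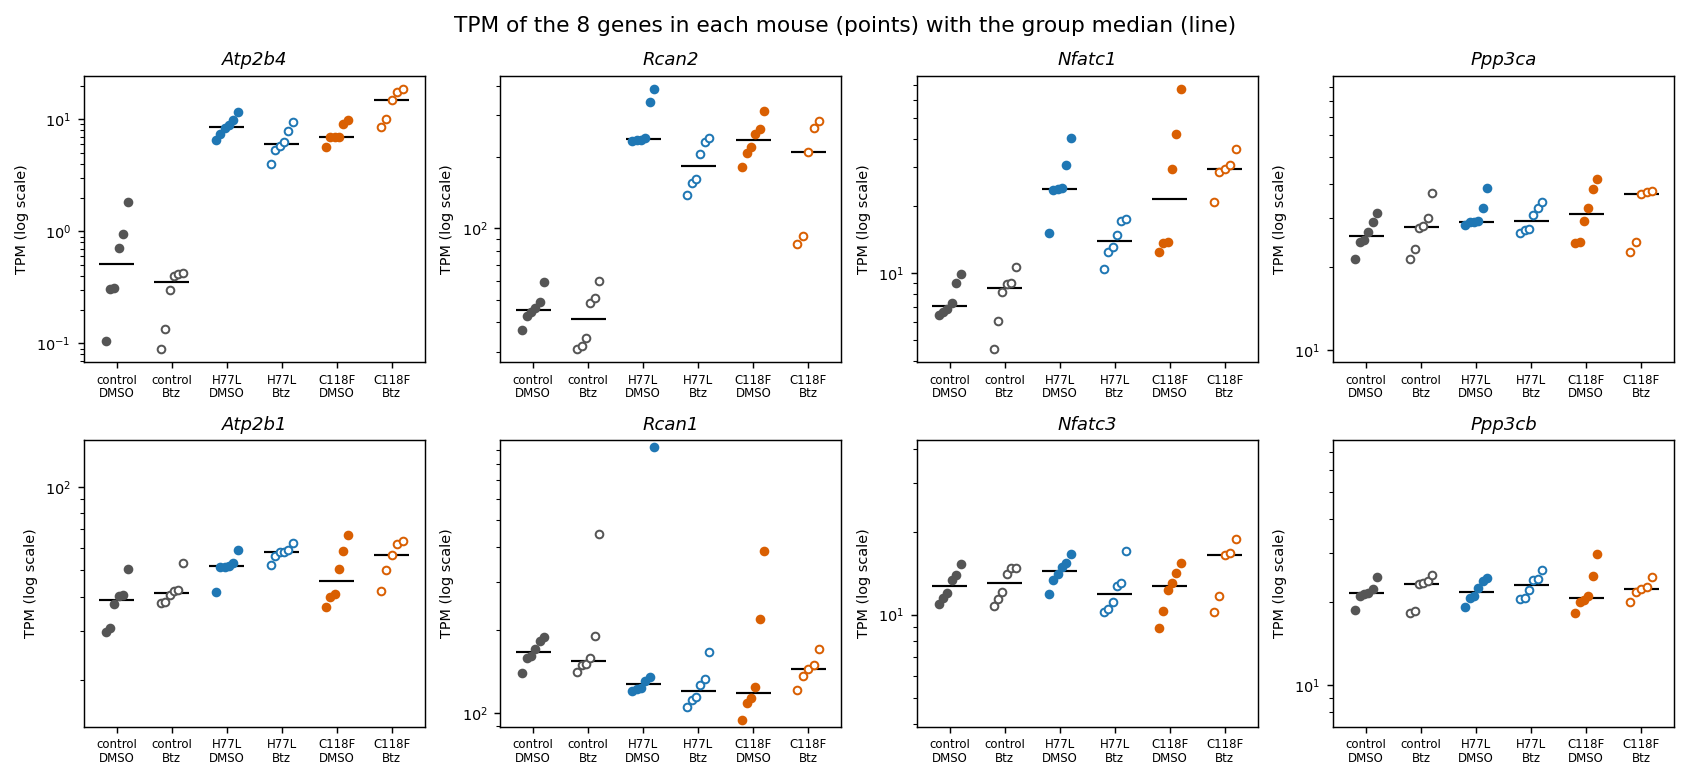
TPM of the 8 genes (log axis) in each of the 35 mice, by genotype and treatment (filled circles, DMSO; open circles, bortezomib, Btz; horizontal line, group median). *Atp2b4* and *Rcan2* of all knock-in mice lie above the controls of either treatment, *Nfatc1* is higher in most of them, and *Rcan1* has single mice at 920, 447 and 387 TPM.

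Of the other 6 genes, *Atp2b1* and *Nfatc1* rose in H77L mice under DMSO, *Nfatc1* rose in C118F mice under DMSO, and *Atp2b1* and *Nfatc1* rose in either line under bortezomib. None of the 6 fell. These are 2, 1, 2 and 2 of 6 genes, where 22.4%, 13.7%, 12.5% and 15.1% of all genes tested rose and 22.4%, 16.6%, 11.0% and 12.4% fell, in H77L and C118F mice under DMSO and then under bortezomib. At the study's stricter cutoffs, an adjusted p under 0.001 with a log2 fold change above 2, none of the 6 was higher by limma, against 1.62%, 1.63%, 0.925% and 1.52% of all genes. Both lines were compared with the same controls under each treatment.

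*Nfatc1*, which passed in all 4 comparisons of knock-in with control mice, encodes the NFAT factor known from lymphocytes, osteoclasts and heart valves. It ranged from 6.45 to 9.85 TPM in DMSO-treated controls (median, 7.09), from 15.1 to 40.6 TPM in H77L mice (median, 24.0) and from 12.4 to 67.4 TPM in C118F mice (median, 21.6). After bortezomib the controls had 4.55 to 10.6 TPM (median, 8.55) and the H77L mice 10.5 to 17.6 TPM (median, 14.0). The 5 C118F mice had 20.9, 28.5, 29.4, 30.6 and 36.2 TPM after bortezomib. Only the lowest bortezomib-treated H77L mouse overlapped with the controls of the same treatment. The rise in log2(TPM + 1) under DMSO was 1.61 ± 0.19 in H77L mice (adjusted p = 1.5e-05, limma) and 1.55 ± 0.35 in C118F mice (adjusted p = 0.0045). Under bortezomib it was 0.80 ± 0.18 in H77L mice (adjusted p = 0.0046) and 1.78 ± 0.20 in C118F mice (adjusted p = 1.3e-05). These calls held with each mouse left out in turn, with adjusted p-values of at most 0.0140, and in the other alternatives tried, with adjusted p-values of at most 0.0372. The rise in C118F mice under DMSO was 0.95 (adjusted p = 0.016) with the mouse number in the model. Without the C118F mouse with high *Ren1*, the difference under DMSO was 1.71, and without the one with few reads that under bortezomib was 1.78. The C118F mice varied most under DMSO, where 3 of them had 12.4 to 13.8 TPM and the other 3 had 29.4, 42.0 and 67.4 TPM.

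*Atp2b1*, the abundant plasma membrane pump PMCA1, was moderately higher in the knock-in lines, a difference that depended on the comparison and the fit. Controls had 29.8 to 50.5 TPM (median, 39.0) and H77L mice 41.7 to 58.8 TPM (median, 51.4) under DMSO, and 5 of the 6 H77L mice were above all controls. C118F mice had 36.6 to 66.7 TPM (median, 45.6). Under bortezomib, controls had 38.0 to 52.9 TPM (median, 41.1), H77L mice 52.0 to 62.6 TPM (median, 58.0), and C118F mice 42.0, 49.8, 56.5, 62.2 and 63.6 TPM. The difference in log2(TPM + 1) passed the test in H77L mice under DMSO (0.43 ± 0.12, adjusted p = 0.012) and bortezomib (0.45 ± 0.09, adjusted p = 0.0019). It passed in C118F mice under bortezomib (0.36 ± 0.13, adjusted p = 0.048), but not under DMSO (0.33 ± 0.17, adjusted p = 0.15). The call in bortezomib-treated H77L mice held in the 7 alternatives with all mice (0.355 to 0.460, adjusted p at most 0.0118). Adding the mouse number to the model left 0.26 in H77L mice under DMSO (adjusted p = 0.23) and 0.05 in C118F mice under bortezomib (adjusted p = 0.80). In 9 of the 11 fits that left out 1 mouse, the call in bortezomib-treated C118F mice was lost. The abundance of long relative to short genes, which differs between libraries, moved with *Atp2b1*. A length score, the mean log2(TPM + 1) of the longest 25% of genes minus that of the shortest 25%, was −1.05 to −0.964 in DMSO-treated H77L mice and −1.38 to −1.08 in their controls, with no overlap. With this score as a covariate, the *Atp2b1* difference under DMSO was 0.12 in H77L mice (adjusted p = 0.79). Because the score does not overlap between these groups, genotype and score cannot be told apart in this fit. Over all genes, the covariate took the calls from 2452 higher and 2455 lower to 554 and 405.

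*Rcan1* was the more abundant paralog in control podocytes and did not pass the test in any comparison with them. It ranged from 140 to 188 TPM in DMSO-treated controls (median, 166), from 121 to 920 TPM in H77L mice (median, 127) and from 94.7 to 387 TPM in C118F mice (median, 119). Bortezomib-treated mice had 141 to 447 TPM in controls (median, 155) and 106 to 167 TPM in H77L mice (median, 120), and the 5 C118F mice had 121, 137, 144, 150 and 172 TPM. Most knock-in mice were below the controls, and a few single mice were far above: 5 of the 6 DMSO-treated H77L mice had 121 to 135 TPM, below every control, and the remaining mouse had 920 TPM. In the C118F line, 4 of 6 DMSO-treated mice were below and 2 were above every control. The differences in log2(TPM + 1) were 0.08 ± 0.40 and −0.13 ± 0.28 under DMSO, and −0.58 ± 0.23 (adjusted p = 0.077) and −0.38 ± 0.24 under bortezomib for H77L and C118F, respectively. Without the H77L mouse at 920 TPM, the difference in DMSO-treated H77L mice turned to −0.39 (adjusted p = 0.0025, limma). Without the bortezomib-treated control at 447 TPM, that in bortezomib-treated H77L mice was −0.33 (adjusted p = 0.042). With the length score as a covariate, the difference under bortezomib was −0.63 in H77L mice (adjusted p = 0.016) and −0.65 in C118F mice (adjusted p = 0.030). The H77L mouse at 920 TPM also had the highest *Nfatc1* of its group, 40.6 TPM, and the highest sum of smooth muscle markers of its group, 338 TPM, with *Acta2* at 210 TPM. The DMSO-treated C118F mouse at 387 TPM of *Rcan1* had the highest *Nfatc1* of all mice, 67.4 TPM, but the lowest sum of smooth muscle markers of its group, 99.8 TPM.

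*Ppp3ca*, *Ppp3cb* and *Nfatc3* stayed within a narrow range. *Ppp3ca*, the α isoform of the catalytic subunit, ranged from 21.3 to 41.8 TPM over all 35 mice, *Ppp3cb*, the β isoform, from 18.3 to 29.8 TPM, and *Nfatc3* from 8.96 to 18.8 TPM. Group medians of *Ppp3ca* were 25.9 TPM in DMSO-treated controls, 29.2 TPM in H77L mice and 31.0 TPM in C118F mice, and those of *Ppp3cb* were 21.5, 21.8 and 20.7 TPM. All groups overlapped for these 3 genes. No difference from controls passed the test, and the 95% intervals under DMSO, in log2(TPM + 1), were 0.00 to 0.47 (H77L) and −0.08 to 0.57 (C118F) for *Ppp3ca*. They were −0.19 to 0.23 and −0.25 to 0.31 for *Ppp3cb*, and −0.10 to 0.40 and −0.39 to 0.27 for *Nfatc3*. Exons of *Nfatc3* share 2626 bases with *Esrp2* on the opposite strand, and whether reads were counted by strand is not given in the sources used here, so that its value may hold reads of *Esrp2*.

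**Figure D2:**
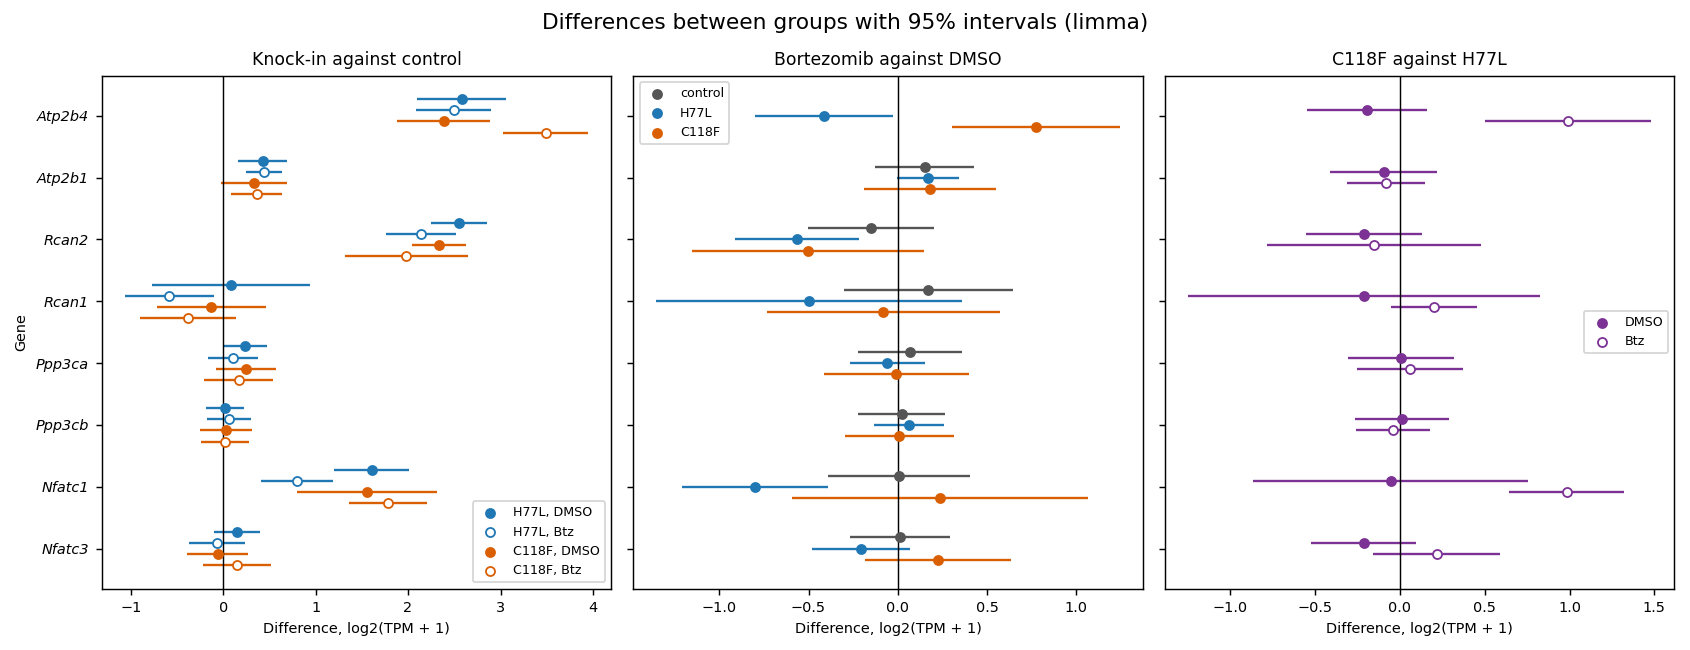
Differences of the 8 genes between groups in log2(TPM + 1) (points) with 95% intervals from limma (bars), for knock-in against control mice, bortezomib (Btz) against DMSO, and C118F against H77L. *Nfatc1* is to the right of 0 in all 4 comparisons with controls, whereas *Ppp3ca*, *Ppp3cb* and *Nfatc3* stay near 0. *Atp2b4* and *Rcan2* also lie to the right there, but they were chosen for this rise, so their bars in that panel are no test. Between bortezomib and DMSO, *Atp2b4* lies to the left of 0 in H77L and to the right in C118F mice.

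The next question was whether bortezomib moved these genes. At an adjusted p under 0.05, it moved none of the 7 genes tested in controls and none of the 8 in either knock-in line by limma, nor by voom on recovered reads. At an unadjusted p under 0.05, 0 passed in controls, 3 in H77L (*Atp2b4*, *Rcan2* and *Nfatc1*) and 1 in C118F mice (*Atp2b4*). Over all genes the share was 0.0% in controls, 1.16% in H77L and 0.0% in C118F mice by limma, and at an unadjusted p under 0.05 it was 8.66%, 20.0% and 5.86%. *Atp2b4* was too low in controls to be tested. In H77L mice, *Nfatc1* was 10.5 to 17.6 TPM after bortezomib and 15.1 to 40.6 TPM after DMSO, and 4 of 6 treated mice were below every DMSO-treated mouse. The difference in log2(TPM + 1) was −0.80 ± 0.19 (adjusted p = 0.055, limma). It passed the threshold when the number of the mouse in its label was a covariate (−0.81, adjusted p = 0.048) or when the DMSO-treated mouse with the lowest *Nfatc1* was left out (−0.94, adjusted p = 0.040). *Rcan2* differed by −0.56 ± 0.16 in H77L mice (adjusted p = 0.084), with 5 of 6 treated mice below every DMSO-treated mouse. In C118F mice it differed by −0.50 ± 0.30 (adjusted p = 0.82), and in controls by −0.15 ± 0.17 (adjusted p = 0.79). The knock-in mice in these comparisons are among those for which *Rcan2* and *Atp2b4* were chosen.

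*Atp2b4* went in opposite directions after bortezomib in the knock-in lines, without passing the adjusted threshold in either. In H77L mice, 4 of 6 treated mice were below every DMSO-treated mouse, a difference of −0.41 ± 0.18 (unadjusted p = 0.039, adjusted p = 0.22, limma). In C118F mice, 4 of 5 treated mice were above every DMSO-treated mouse, a difference of 0.77 ± 0.22 (unadjusted p = 0.0034, adjusted p = 0.73, limma). The difference between these responses, tested as an interaction, was −1.18 ± 0.29 (unadjusted p = 3.7e-04, adjusted p = 0.59, limma), and no gene passed the adjusted threshold in it (0.0% of 11046 genes by limma, 7.6% at an unadjusted p under 0.05). Leaving out single mice moved the interaction of *Atp2b4* between −1.33 and −1.07. Without the C118F mouse with few reads, which had 18.7 TPM, the response in C118F mice was 0.66. For *Nfatc1* the interaction was −1.04 ± 0.45 (adjusted p = 0.65).

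The knock-in lines were also compared directly. Under DMSO none of the 8 genes passed the test, and 0 did at an unadjusted p under 0.05 or by voom. Of 10809 genes 0.0% passed by limma, and 3.85% at an unadjusted p under 0.05. Under bortezomib, *Nfatc1* was higher in C118F than in H77L mice, without overlap, by 0.98 ± 0.16 in log2(TPM + 1) (adjusted p = 0.012, limma). It was 1 of 8 genes tested, where 0.972% of all genes passed the test and 1.22% were higher without overlap. The adjusted p was 0.053 without the filter on low values, 0.069 with the mouse number as a covariate and 0.15 when all 35 mice shared 1 estimate of the spread. Without the C118F mouse with few reads, the difference was 0.99 (adjusted p = 0.024). *Atp2b4* differed by 0.99 ± 0.23 (adjusted p = 0.055), with 4 of 5 C118F mice above every H77L mouse. This passed with voom on reads recovered from the TPM values (adjusted p = 0.048) and when the C118F mouse with the lowest *Atp2b4* was left out (adjusted p = 0.020). Over the 7 alternatives with all mice, the adjusted p was 0.0273 to 0.199, and without the C118F mouse with few reads it was 0.113.

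Because both RCAN genes and both pumps were measured in the same mouse, the members of a family could be set against each other within it. In controls, *Rcan2* had 0.267 of the TPM of *Rcan1* in the median mouse under DMSO and 0.240 under bortezomib. In H77L mice this ratio was 1.94 and 1.53, and in C118F mice 1.76 and 1.66. *Rcan2* was the lower paralog in all 12 controls. It was the higher one in 5 of 6 DMSO-treated and 5 of 6 bortezomib-treated H77L mice, and in 5 of 6 and 3 of 5 C118F mice. *Atp2b4* remained the minor pump everywhere, at 0.00235 to 0.0591 of the TPM of *Atp2b1* in controls and 0.0672 to 0.446 in knock-in mice. These shifts between genotypes rest in part on the genes chosen for their rise and were not tested. Between treatments, *Atp2b4* minus *Atp2b1* in log2(TPM + 1) differed by −0.58 in H77L and by 0.59 in C118F mice, each with p = 0.030 in a two-sided exact permutation test and an adjusted p of 0.061 over 4 tests. *Rcan2* minus *Rcan1* differed by −0.07 in H77L (exact permutation p = 0.95) and by −0.42 in C118F mice (exact permutation p = 0.44).

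**Figure D3:**
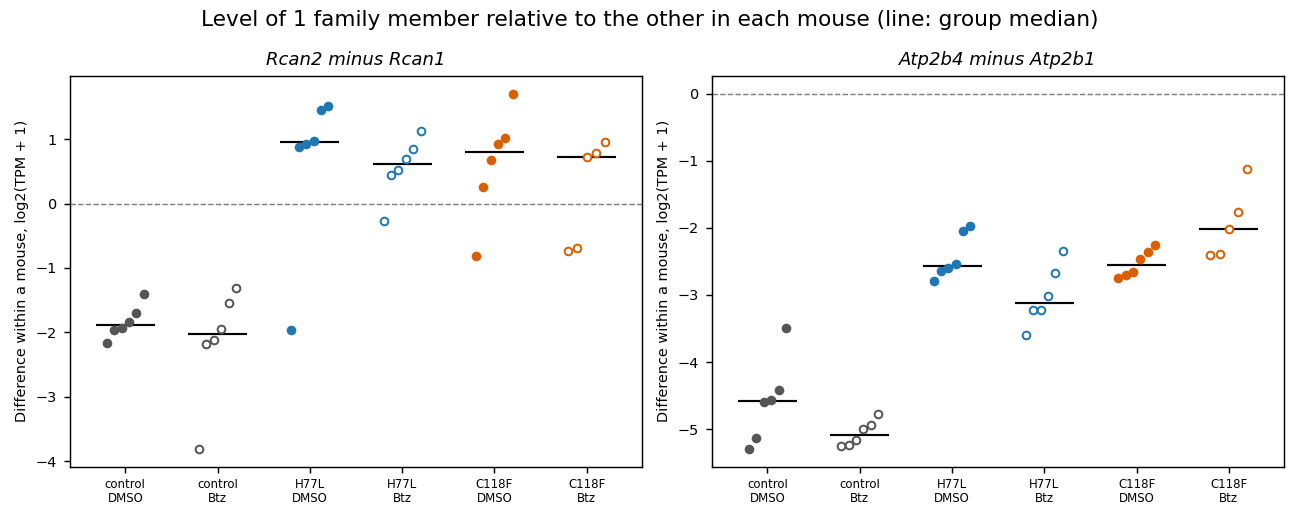
Level of *Rcan2* relative to *Rcan1* (left) and of *Atp2b4* relative to *Atp2b1* (right) within each mouse, as differences of log2(TPM + 1), by genotype and treatment (filled circles, DMSO; open circles, bortezomib, Btz; horizontal line, group median; dashed line, equal levels). Median differences for *Rcan2* are −1.88 and −2.03 in controls and 0.61 to 0.95 in knock-in mice, and those for *Atp2b4* stay below 0 in all 6 groups.

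The remaining members of these families were mostly low or did not pass the test. The neuronal pumps *Atp2b2* and *Atp2b3* were at most 0.433 and 0.239 TPM in any mouse. The regulatory calcineurin subunit *Ppp3r1* was the most abundant of the phosphatase, at 119 to 205 TPM, and did not pass the test against controls in either line, while its testis form *Ppp3r2* was at most 0.243 TPM. *Ppp3cc*, the third catalytic subunit, fell by 0.43 ± 0.12 in H77L mice (adjusted p = 0.010, limma) and by 0.48 ± 0.15 in C118F mice (adjusted p = 0.025) under DMSO, from a median of 28.2 TPM in controls to 20.7 and 20.3 TPM. Under bortezomib its differences were −0.27 (adjusted p = 0.24) and −0.32 (adjusted p = 0.14). *Rcan3* ranged from 10.9 to 23.6 TPM and did not pass the test against controls. *Nfatc2* and *Nfatc4* were at most 0.804 and 1.59 TPM, and *Nfat5*, the factor of the osmotic response that calcineurin does not control, had 5.21 to 22.7 TPM, with a difference of 0.41 ± 0.16 in DMSO-treated H77L mice that did not pass (adjusted p = 0.050).

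The wider calcium and calcineurin lists were written from general knowledge, but with earlier results of these data known. Their counts are therefore not independent of these data. Of the 102 listed genes other than *Atp2b4* and *Rcan2*, 60 were tested in DMSO-treated H77L mice and 63 in C118F mice. Some of them met the filter on low values only through the knock-in mice or only through the controls, so that counts are given for genes above 1 TPM in every mouse of both groups. Of 55 such genes in H77L mice, 20 rose and 8 fell, where 20.9% of all genes of this kind rose and 22.7% fell. Of 54 in C118F mice, 11 rose and 7 fell, against 11.9% and 16.6% of all genes. Under bortezomib, 9 rose and 7 fell in H77L mice (all genes, 11.4% and 10.9%), and 13 rose and 7 fell in C118F mice (all genes, 13.5% and 12%), of 57 in each. The median difference in log2(TPM + 1) under DMSO was 0.17 in H77L and 0.11 in C118F mice, against −0.02 and −0.07 over all genes of this kind. Each single list below holds few genes, and nothing is read from its share.

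Several listed genes were at or under 1 TPM in some controls and met the filter under DMSO only through the knock-in mice. Their values are a description, with no test. *Camk2a*, a calmodulin-dependent kinase best known from neurons, had 0.215 to 2.04 TPM in DMSO-treated controls, 25.8 to 44.9 TPM in H77L and 21.0 to 42.2 TPM in C118F mice. *Slc24a3*, a potassium-dependent sodium-calcium exchanger, had 0 to 1.22 TPM in controls, 7.60 to 14.1 TPM in H77L and 3.97 to 11.7 TPM in C118F mice. Neither gene overlapped between controls and knock-in mice, where 11.0% of all genes tested in H77L and 6.48% in C118F mice were higher without overlap. Passing the filter only through the knock-in mice favours such a gap. *Camkk1*, a kinase of other calmodulin-dependent kinases, had 0.657 to 1.87 TPM in controls, 1.14 to 8.39 TPM in H77L and 3.76 to 13.9 TPM in C118F mice. *Egr3*, an early growth response gene known as an NFAT target, had 0.654 to 10.4 TPM in controls, 7.11 to 27.6 TPM in H77L and 6.37 to 33.3 TPM in C118F mice. Both of the latter overlapped with controls in H77L mice, and *Egr3* also in C118F mice.

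Of the intracellular pumps and their regulators, which return calcium to internal stores, 3 of the 3 genes above 1 TPM in both groups rose in H77L and 2 of 3 in C118F mice under DMSO. *Atp2a3* (SERCA3) rose from 1.06 to 7.13 TPM in controls to 33.8 to 111 TPM in H77L and 31.0 to 77.9 TPM in C118F mice, by 3.47 ± 0.33 and 3.36 ± 0.32. *Atp2a2* (SERCA2) rose by 0.95 ± 0.21 and 0.80 ± 0.25. *Slc8b1*, the sodium-calcium exchanger of mitochondria and the 1 exchanger above 1 TPM in both groups, rose by 0.83 ± 0.12 and 0.90 ± 0.12. Among calmodulin genes and kinases, 3 of 6 rose and 2 fell in H77L mice, and 2 of 6 rose and 2 fell in C118F mice. The calmodulin genes *Calm3* and *Calm2* fell by 0.92 ± 0.16 and 0.57 ± 0.10 in H77L and by 0.72 ± 0.20 and 0.43 ± 0.12 in C118F mice. Of 6 genes for mitochondrial calcium uptake, 1 rose and 3 fell in H77L mice and 1 rose and 2 fell in C118F mice. The gatekeeper *Micu2* fell by 0.45 ± 0.11 in H77L and by 0.54 ± 0.12 in C118F mice, while the channel *Mcu* rose by 0.46 ± 0.11 and 0.31 ± 0.11.

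Among genes that respond to calcineurin and NFAT, or are acted on by calcineurin, 1 of 7 rose and 2 fell in DMSO-treated H77L mice, and 0 of 7 rose and 2 fell in C118F mice. The list does not separate targets of NFAT from substrates, and *Rcan1* is in it. *Synpo* (synaptopodin), a calcineurin substrate and also 1 of the 12 podocyte markers, fell by 2.06 ± 0.22 in H77L mice (adjusted p = 4.9e-06, limma) and by 2.44 ± 0.23 in C118F mice (adjusted p = 2.7e-06), from a median of 2409 TPM in controls to 631 and 501 TPM. Under bortezomib it was lower in C118F than in H77L mice, by −0.53 ± 0.12 (adjusted p = 0.047, limma), just under the threshold. Of 64 listed genes tested there, 2 passed, where 0.972% of all genes did. The *Synpo* call was not run under the alternatives. *Crtc1*, a coactivator of CREB that calcineurin dephosphorylates, fell by 0.82 ± 0.16 and 1.00 ± 0.24. *Trpc6*, the calcium channel of podocytes, was at most 2.42 TPM and was not tested.

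The other lists were counted in the same way under DMSO. *Myoz1*, which anchors calcineurin in muscle, rose by 0.51 ± 0.18 in H77L and 0.63 ± 0.20 in C118F mice, as 1 of the 2 genes of 7 tested that rose in H77L and the only 1 of 7 in C118F mice. Of 7 NFAT kinases and scaffolds in each line, 2 rose, and *Csnk1e*, a casein kinase, rose in both (0.81 ± 0.20 and 1.03 ± 0.23). Among genes of calcium entry and store release, 5 of 11 rose in H77L and 1 of 10 in C118F mice, and *P2rx4*, an ATP-gated channel, rose in both (0.37 ± 0.10 and 0.46 ± 0.15). Of the 4 tested calcineurin subunits, 1 fell in each line and none rose. No gene of any list passed the test between bortezomib and DMSO in controls, H77L or C118F mice by limma, while 5 of 59, 14 of 63 and 3 of 65 tested had an unadjusted p under 0.05, against 8.66%, 20.0% and 5.86% of all genes.

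**Figure D4:**
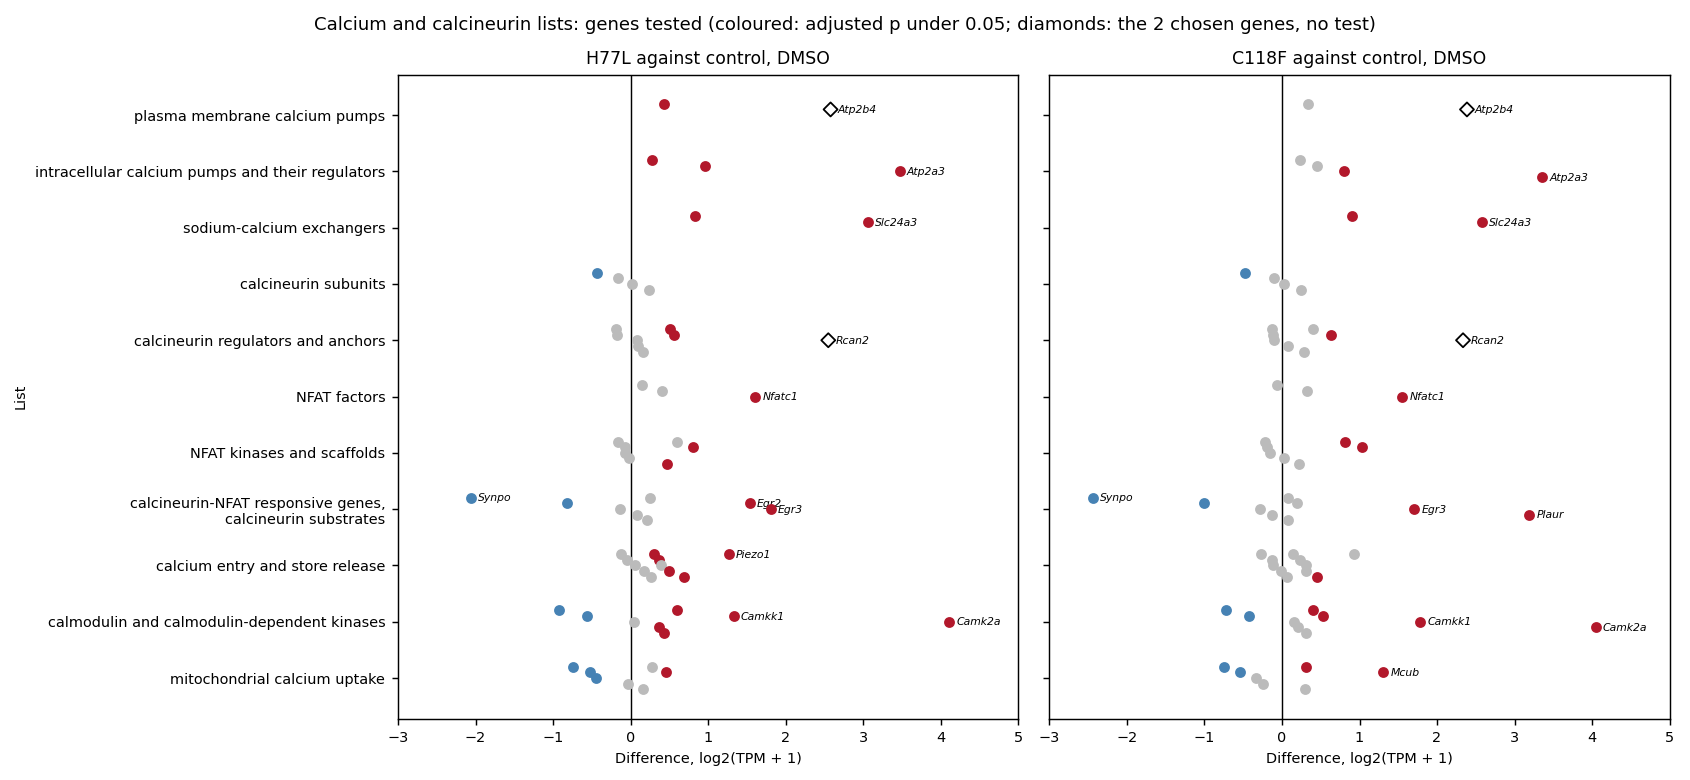
Differences in log2(TPM + 1) between DMSO-treated knock-in and control mice for the tested genes of 11 calcium and calcineurin lists (1 point per gene; red and blue, higher and lower with an adjusted p under 0.05; grey, not passed; diamonds, *Atp2b4* and *Rcan2*, chosen for their rise and not tested; names, differences beyond 1.2). *Camk2a*, *Atp2a3* and *Slc24a3* lie far to the right in both lines, *Synpo* lies far to the left, and calcineurin subunits lie near 0. Red points of *Camk2a*, *Slc24a3*, *Camkk1* and *Egr3* in both lines, and of *Plaur* and *Mcub* in C118F mice, are a description only. These genes met the filter only through the knock-in mice, so their colour is not read as a test.

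Across all 35 mice and 11306 expressed genes, the genes whose log2(TPM + 1) followed *Atp2b4* most closely were *Itga7* (r = 0.965), *Camk2a* (0.956), *Dmpk* (0.953), *Rasgrp1* (0.951) and *Deup1* (0.948). For *Rcan2* they were *Cald1* (r = 0.954), *Galns* (0.950), *Fam180a* (0.948), *Gsn* (0.947) and *Cyb5r3* (0.945). These correlations include the difference between knock-in and control mice. Once each gene was set relative to its group means, the closest genes were *Stk39* (r = 0.672), *Plekhg3*, *Igsf10*, *Tfcp2l1* and *Gclc* (0.582) for *Atp2b4*, and *Cldn15* (r = 0.710), *Dhrs3*, *Foxl1*, *Rtn2* and *Rras* (0.703) for *Rcan2*. No gene was in both lists for *Atp2b4* or in both for *Rcan2*. Within groups, *Atp2b4* and *Rcan2* did not rise together (r = −0.267, n = 35), whereas *Ppp3ca* went with *Nfatc3* (0.689), *Atp2b1* (0.677), *Nfatc1* (0.613) and *Rcan1* (0.612). The length score went with the same genes, at r = 0.761 for *Nfatc3*, 0.725 for *Ppp3ca*, 0.668 for *Nfatc1*, 0.664 for *Atp2b1* and 0.536 for *Rcan1*, but at 0.205 for *Atp2b4* and −0.155 for *Rcan2*. The part of the length score in these correlations was not tested. With the score as a covariate, the rise of *Nfatc1* under DMSO was 1.85 in H77L (adjusted p = 0.0054) and 1.36 in C118F mice (adjusted p = 8.3e-04). In the H77L fit, genotype and score cannot be told apart.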

How the data were processed

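Libraries were prepared from poly(A) RNA of sorted podocytes of 35 mice. The authors used Trim Galore 0.6.7 for trimming, STAR for alignment to GRCm39 and featureCounts 1.6.3 for counting (Ensembl 110), and deposited TPM values. The step from counts to TPM is not given in the sources used here. Of 33292 gene identifiers, 32776 were found in GENCODE vM39. All columns of the table were used. Groups follow the genotype and treatment labels. Each library is a mouse of its own.

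TPM values were transformed to log2(TPM + 1). Genes above 1 TPM in every mouse of at least 1 group compared were fitted with limma 3.58.1 (R 4.3.3; lmFit, eBayes with trend), using only the mice that a comparison was about. Counts over the lists against controls leave out genes that met the filter through only 1 of the groups. Calls used a Benjamini-Hochberg adjusted p under 0.05 over all genes tested. Every adjusted p is from limma unless a permutation test is named. Fold changes are on the log2(TPM + 1) scale. The fit was tested on simulated data. Differences between family members within a mouse were tested between treatments by exact permutation, two-sided (scipy 1.17.1).

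Whole reads were recovered from the steps of the TPM values for 100% of 23943 expressed genes (tolerance, 0.001 read), which gave the depth of each mouse. Errors come from the spread between mice, since PCR copies do not count as separate molecules.

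The members and lists were chosen with earlier results of these data known. Genes named are the 8 members, all pumps, calcineurin subunits and NFAT factors, the 5 genes most correlated with *Atp2b4* or *Rcan2* over all mice and within groups, and from each other list up to 4 genes with the lowest adjusted p among those called in both knock-in lines under DMSO, ranked by the higher of the 2 adjusted p-values, or in a bortezomib comparison. Of these, 1 gene is not reported here. *Rcan3* and *Trpc6* were added after their values were seen. Alternatives were a pseudocount of 0.1, no filter, all mice in 1 fit, median-of-ratios scaling, the mouse number in the sample title as a linear covariate, voom on recovered reads, each mouse left out and, added after the data were seen, the length score as a covariate (9628 genes).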

Additional observations from a re-analysis of the deposited data

Results flagged for a closer look

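In 3 of 48 groups examined, each of 1 gene, the value of 1 mouse stood far from the rest of its group, which concerned 2 mice in all, where chance alone would mark about 1 group in 20 by the test used (Dixon's). *Rcan1* was 920 TPM in a DMSO-treated H77L mouse, against at most 135 TPM in the other 5. *Rcan1* was 447 TPM in a bortezomib-treated control, against at most 190 TPM in the other 5. In the same control mouse *Atp2b1* was 52.9 TPM, against at most 42.1 TPM in the others, and its length score was −0.863, the highest of its group. The same check of the recovered reads and the length score of each group marked no mouse.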

How the results depend on the processing

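Of 78 counts and family differences recomputed with all mice, 69 kept their direction and side of the threshold or stayed within 1.5 times the reported count. Adding the mouse number to the model, the counts of called members went to 1 in H77L against control under DMSO, 2 in C118F against control under DMSO, 1 in bortezomib against DMSO in H77L and 0 in C118F against H77L under bortezomib. The length score as a covariate gave 1 in H77L against control under DMSO, where genotype and score cannot be told apart. A fit of all 35 mice gave 2 in C118F against control under DMSO. Without the filter on low values, the counts were 1 in C118F against control and 0 in C118F against H77L under bortezomib, where voom on recovered reads gave 2. When single mice were left out, the counts were 2 to 3 in H77L against control under DMSO and under bortezomib, 1 in C118F against control under DMSO, 1 to 2 in it under bortezomib, 0 to 1 for bortezomib in H77L, 1 to 2 in C118F against H77L under bortezomib, and 0 in the other comparisons. The bortezomib difference of *Atp2b4* minus *Atp2b1* ranged from −0.716 to −0.465 in H77L mice (adjusted exact permutation p from 0.035 to 0.12) and from 0.389 to 0.708 in C118F mice (0.061 to 0.13). That of *Rcan2* minus *Rcan1* ranged from −0.587 to 0.108 in H77L and from −0.709 to −0.183 in C118F mice. Of 1565 values of single members under an alternative, 1526 kept their direction and side of the threshold. *Rcan1* in DMSO-treated H77L mice against control reversed to −0.39 without the mouse at 920 TPM and was at most 0.194 with any other mouse left out. With the mouse number in the model, *Rcan1* was lower in C118F mice under DMSO (−0.64, adjusted p = 0.013) and in H77L (−0.91, adjusted p = 0.0015) and C118F mice (−0.95, adjusted p = 0.016) under bortezomib. The cause was not tested. No paired analysis was possible because the labels give no replicate numbers that groups share. Few reads limit *Atp2b4* in controls.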
